A study of Mus musculus with 30 samples.

Results

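Haematopoietic stem cells (HSCs) from the bone marrow of mice aged 2 years were compared between 5 libraries labelled IL1R1 KO and 4 wild-type (WT) libraries, which are 9 of the 30 RNA-seq libraries of the study. The other groups were libraries labelled IL1R1 KO at 2 months (n = 3) and 1 year (n = 4), germ-free libraries at 2 months (n = 3) and 1 year (n = 2), and WT libraries at 2 months (n = 4) and 1 year (n = 5). The members were taken from the labels alone, so no expression value chose them. No treatment is labelled, and the type of Il1r1 allele, the strain and the antigens used for sorting are missing from the sources used here. Whether each replicate was a different animal is not stated per library. The p-values rest on a spread per gene estimated within the groups over all 30 libraries. They speak only to that spread, which may be partly technical.

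Il1r1 encodes the signalling receptor of interleukin-1 (IL-1), an inflammatory cytokine. Bound receptor recruits the co-receptor Il1rap and the adaptor Myd88 and activates NF-kB and the MAP kinases, which switch on inflammatory genes. In mice, IL-1 drives HSCs towards myeloid output, and old marrow is known for more inflammatory signalling and for HSCs biased to the myeloid and platelet lineages.

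Expression is given in normalized counts, for which the authors divided gene counts by a factor for each library. Differences are log2(normalized count + 1) of the libraries labelled KO (short for IL1R1 KO) minus WT, with standard errors (given after ±) from limma, a linear model fitted to the 16958 genes that reached 10 or more in 3 or more of the 30 libraries. A gene was called at a Benjamini-Hochberg adjusted p under 0.05. The estimated depth was 19.3 to 35.3 M reads in the libraries labelled KO and 23.6 to 29.6 M reads in WT libraries. WT replicate 2 stood apart from the other WT libraries: the mean log2 level of 32 immediate early genes was 9.09 there and 10.54 to 11.30 in the other WT libraries, and that of 13 neutrophil markers was 4.07 there and 6.91 to 10.70 in the others. Counts are therefore also given without it.

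Il1r1 itself was not lower in the libraries labelled KO. It had 374, 300.0, 281, 409 and 246 in the libraries labelled KO, against 193, 312, 383 and 216 in WT libraries. The groups overlapped, and the difference was 0.25 ± 0.26, adjusted p = 0.804. The value adds up reads from all exons, so it does not test for an allele that lacks only some of them, and it neither bears out nor contradicts the label. The group is therefore named by its label throughout. The co-receptor Il1rap (-0.04 ± 0.23, adjusted p = 0.978) and the adaptor Myd88 (-0.04 ± 0.11, adjusted p = 0.946) were not called either.

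At 2 years 241 genes were called (1.42%), of which 169 were higher in the libraries labelled KO (0.997%) and 72 were lower (0.425%). The higher genes held a group of stress- and stimulus-responsive regulators (Sik1, Dusp5, Klf2, Tiparp, Csrnp1, Dyrk3), chaperones and transcription factors of the unfolded protein response, and feedback inhibitors of growth factor signalling. The calls of Sik1, Dusp5, Klf2 and Tiparp ended in some fits that left out a library, and 1 feedback inhibitor, Spred3, was lower. Among the lower genes were the HSC regulators Hlf and Ly6a, the IL-18 receptor chains Il18r1 and Il18rap, and Smarcd1 and Acadl, which were also lower at both younger ages. The calls of Hlf, Ly6a, Il18r1 and Il18rap likewise ended in some fits that left out a library. The difference was beyond 2-fold on the log scale for 65 higher and 28 lower genes, and its median over all genes tested was -0.01. In 222 of the 241 the groups did not overlap, which follows largely from calling these genes on the same libraries and adds no support. Of all genes tested 981 did not overlap (5.78%, with 3.66% higher and 2.12% lower). Without WT replicate 2 the count was 125, of which 114 were among the 241, and without WT replicate 4 it was 123. The 80 genes called whichever of the 9 libraries was left out comprised 54 higher and 26 lower ones.

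**Figure D1:**
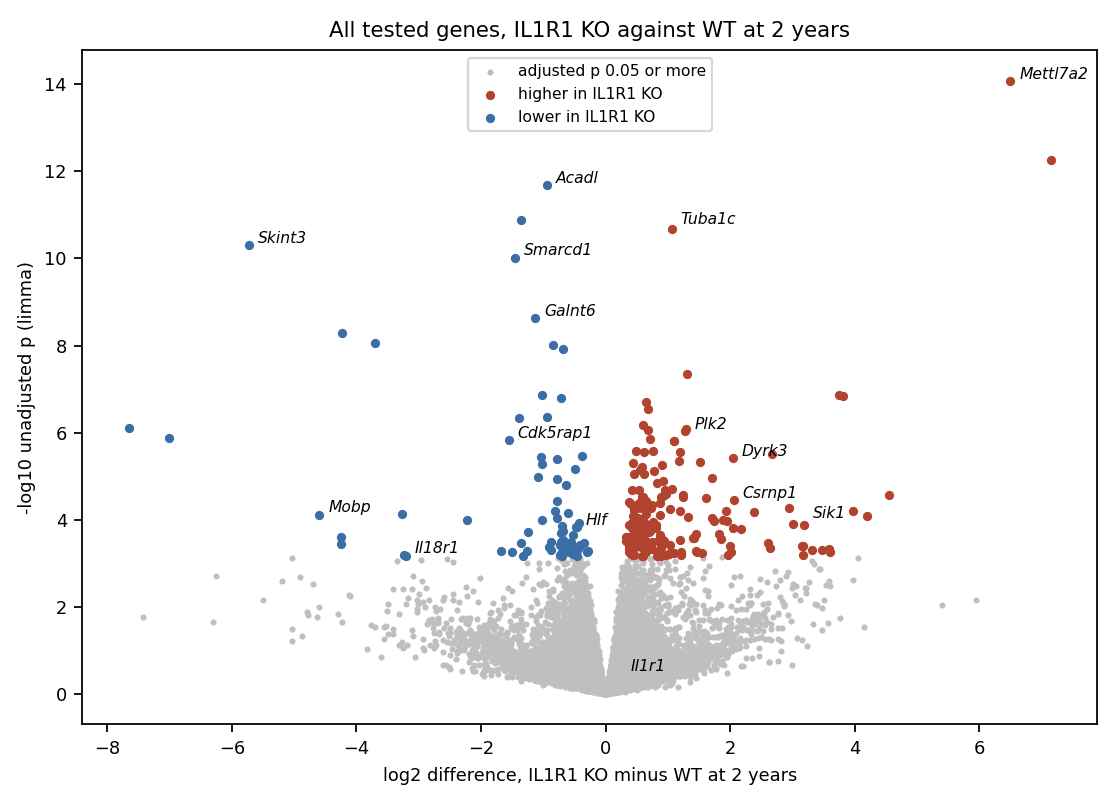
Each point is 1 of 16958 genes, with the log2 difference (IL1R1 KO minus WT at 2 years) on the horizontal axis and -log10 of the unadjusted limma p on the vertical axis. Red points are the 169 genes called higher, blue points the 72 called lower, and grey points the rest, among them Il1r1 near 0.

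The signalling regulators among the 12 largest rises were expressed in every library. Sik1, a salt-inducible kinase that restrains cAMP-driven transcription, had 5344, 4758, 6093, 4632 and 5792 in the libraries labelled KO, against 1290.4, 249.5, 1044 and 336 in WT libraries. Every KO value was well above every WT value, and the log2 difference was 3.19 ± 0.69, adjusted p = 0.0188. Dusp5, a nuclear phosphatase that switches off ERK, had 2272, 1533, 2663, 1853 and 2744 in the libraries labelled KO, against 435, 82.9, 425 and 338 in WT libraries. Its difference was 3.00 ± 0.66, adjusted p = 0.0179, and WT replicate 2 was far below the other WT libraries. Tiparp, an ADP-ribosyltransferase induced by the aryl hydrocarbon receptor, had 3977, 4722, 5132, 4302 and 4887 in the libraries labelled KO, against 1308, 563, 942 and 846 in WT libraries. Csrnp1, a nuclear protein of the cysteine-serine-rich family, had 4760.3, 4219.7, 4850.2, 5259.7 and 5243 in the libraries labelled KO, against 1519, 871, 1553 and 907 in WT libraries. Neither gene overlapped between groups, with differences of 2.39 ± 0.50, adjusted p = 0.0124 for Tiparp and 2.05 ± 0.41, adjusted p = 0.00864 for Csrnp1. Dyrk3, a kinase that dissolves stress granules, had 6971, 8006, 9252, 6813 and 8631 in the libraries labelled KO, against 2004, 1456, 1714 and 2674 in WT libraries. The WT libraries were close to each other for Dyrk3, and the difference was 2.04 ± 0.35, adjusted p = 0.0017. Csrnp1 and Dyrk3 were called whichever library was left out. Leaving out WT replicate 2 ended the calls of Sik1 (adjusted p = 0.0913), Dusp5 (0.0955) and Tiparp (0.0615), and leaving out WT replicate 4 ended that of Sik1 (0.0800).

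Other large rises concerned low or scattered genes. Mettl7a2, a methyltransferase-like gene, had 109, 88.3, 68.1, 93.7 and 92.2 in the libraries labelled KO and was listed at 0 in all 4 WT libraries. The difference was 6.50 ± 0.44, adjusted p = 1.4e-10, and Mettl7a2 was also called higher at 2 months (6.32) and 1 year (6.39). Its near-identical neighbours Mettl7a1 and Mettl7a3 can share its reads, so the single values are uncertain. Mettl7a3 was called higher (2.67 ± 0.46, adjusted p = 0.00143) and Mettl7a1 lower (-0.59 ± 0.15, adjusted p = 0.0439). Slc5a9, a sodium-coupled sugar transporter, had 228, 144, 177, 111 and 211 in the libraries labelled KO, against 32.4, 15.7, 33.5 and 11.5 in WT libraries. Every KO library lay above every WT library, with a difference of 2.94 ± 0.62, adjusted p = 0.0107. Slc5a9 was also called higher at 2 months (4.48) and 1 year (2.89). Klf2, a transcription factor that holds T cells quiescent, had 3213, 3140.1, 2966, 2983 and 3179 in the libraries labelled KO, against 684, 145, 1521 and 436 in WT libraries. The KO values were within a narrow range and the WT values were widely spread (2.61 ± 0.62, adjusted p = 0.0338). Csrnp3 (2.65 ± 0.67, adjusted p = 0.0396), Flrt3, a membrane protein that modulates FGF signalling (2.18 ± 0.50, adjusted p = 0.0209), the metalloprotease Adamts1 (2.05 ± 0.47, adjusted p = 0.02) and the small heat shock protein Cryab (2.01 ± 0.51, adjusted p = 0.0439) completed the set. Their calls ended in 3 to 7 of the 9 fits that left out a library, as did those of Klf2 in 7. The highest adjusted p was 0.155 for Csrnp3 and 0.145 for Klf2, and Slc5a9 lost its call without WT replicate 4 (0.055).

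**Figure D2:**
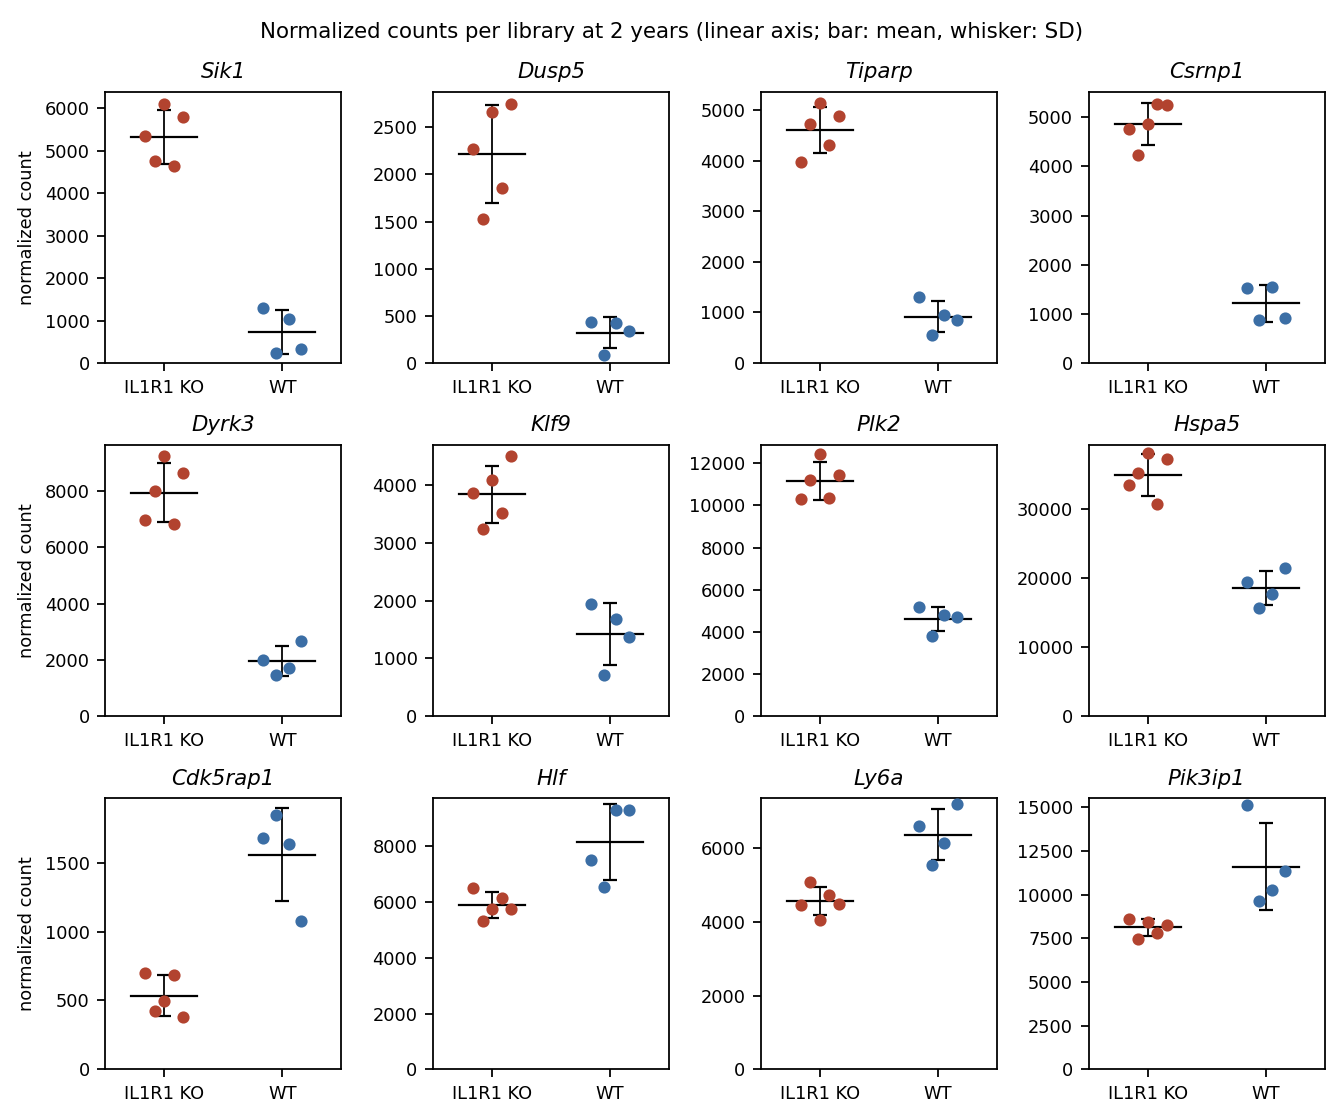
Each panel shows 1 gene, with the normalized count on a linear axis, the 5 libraries labelled IL1R1 KO in red on the left and the 4 WT libraries in blue on the right, bars at the mean and whiskers of 1 SD. The upper 8 genes lie higher and the lower 4 genes lie lower in all KO libraries than in any WT library.

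Immediate early genes, which cells transcribe within minutes of a stimulus from preformed transcription factors, had mostly positive differences at 2 years. Of 32 tested, 5 were called higher (Fosl2, Ier2, Klf2, Klf6 and Dusp5) and none lower, against 0.997% and 0.425% of all genes tested. A positive difference was found in 31, and the median difference was 1.35. At an unadjusted p under 0.05, 26 were higher and 1 was lower, against 6.53% and 5.01% of all genes tested. In 20 of the 32 every KO library lay above every WT library, against 3.66% of all genes. The mean log2 level of the list was 11.92 to 12.17 in the 5 libraries labelled KO, against 10.97, 9.09, 11.30 and 10.54 in WT libraries. The KO libraries were alike and all higher, and the WT libraries spanned more than 2 log2 units. Klf6, a zinc-finger factor induced by injury signals, had 30483, 34155, 35401, 25347 and 36259.5 in the libraries labelled KO, against 12618, 3155, 15171 and 7618 in WT libraries, with a difference of 1.96 ± 0.50, adjusted p = 0.0475. Ier2 was called with 1.21 ± 0.31, adjusted p = 0.0483, and Fosl2, a partner of Jun in AP-1, with 1.21 ± 0.31, adjusted p = 0.0439. The nuclear receptor Nr4a1 had 57292, 49692, 53629, 44829 and 52081 in the libraries labelled KO, against 15990.2, 1002, 7670.1 and 4325 in WT libraries, and its groups did not overlap although it was not called (3.42 ± 0.93, adjusted p = 0.0748). Fos (2.01 ± 0.79, adjusted p = 0.279) and Egr1 (1.32 ± 0.48, adjusted p = 0.228) were also uncalled. Without WT replicate 2 no member was called and the median was 0.93. In a fit with the mean level of this list as a covariate 47 genes were called at 2 years (0.277%), 42 of them among the 241 with the same sign (22 higher, 20 lower). The covariate separates the 2-year groups without overlap and is built from genes that include called ones. It therefore takes up part of the genotype difference itself, and a lost call in this fit cannot be read as dependence on these genes. In that fit 26 of the 43 called genes named by rule lost their call, among them Sik1 (adjusted p = 0.36), Dyrk3 (0.0885), Klf9 (0.15), Plk2 (0.0798), Hspa5 (0.392), Ddit3 (0.45), Hlf (0.145) and Ly6a (0.31), while Cdk5rap1 (0.0112), Pik3ip1 (0.012) and Calr (0.0102) were still called.

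**Figure D3:**
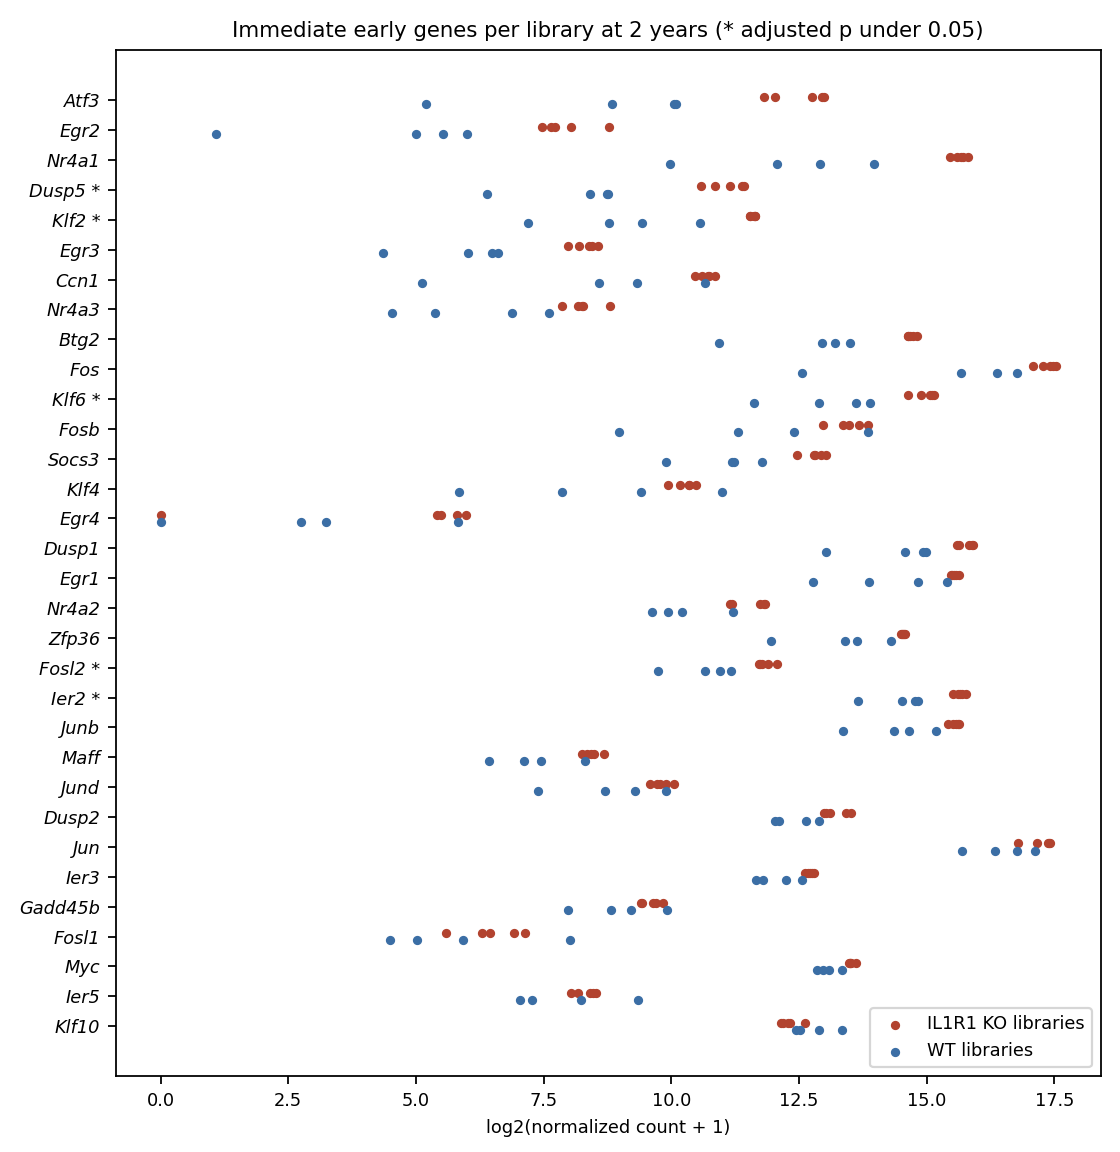
The 32 immediate early genes are listed from the smallest difference at the bottom to the largest at the top, with log2(normalized count + 1) on the horizontal axis. Red points are the 5 libraries labelled IL1R1 KO and blue points the 4 WT libraries, stars mark the 5 called genes, and the blue point far to the left in many lines is WT replicate 2.

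The unfolded protein response raises chaperones and the translation regulators when proteins misfold in the endoplasmic reticulum. It had 6 of 25 tested genes called higher and none lower, with a median of 0.17, where 0.997% of all genes tested were called higher and 0.425% lower. Hspa5, its main chaperone BiP, had 33577, 35202, 38233, 30727 and 37294 in the libraries labelled KO, against 19483, 15619, 17730.3 and 21430.0 in WT libraries. No KO library was below a WT library, and the difference was 0.92 ± 0.18, adjusted p = 0.00756. Ddit3, the stress transcription factor CHOP, had 1984, 1777, 1918, 2198 and 1969.8 in the libraries labelled KO, against 1291, 1006, 941 and 1016 in WT libraries and differed by 0.90 ± 0.18, adjusted p = 0.00761. Both were called whichever library was left out. The lectin chaperone Calr differed by 0.65 ± 0.13, adjusted p = 0.00873, Atf4, which drives Ddit3, by 1.04 ± 0.27, adjusted p = 0.0448, Herpud1, a component of protein disposal, by 0.59 ± 0.16, adjusted p = 0.0489, and Ppp1r15a, the phosphatase subunit that restarts translation, by 1.45 ± 0.33, adjusted p = 0.0252. Without WT replicate 2 the last 3 were no longer called (adjusted p = 0.168, 0.0972 and 0.119), and the call of Herpud1 ended in all 9 fits that left out a library. Of the cytosolic heat shock chaperones 1 of 23 was called, Hspa4 (0.48 ± 0.11, adjusted p = 0.0252, lost in 5 of the 9 fits), and the list's median was -0.07.

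Genes that respond to other signals were sorted into groups chosen after their values were seen, and these counts are descriptions. Over all genes tested 0.997% were called higher and 0.425% lower. Of 23 cAMP-responsive genes 6 were higher, among them Sik1, Creb5, Pde4b, Per1 and Ppp1r15a, and none lower, with a median of 0.96. The transcription factor Creb5 had 360.1, 379, 288, 233 and 418 in the libraries labelled KO, against 65.9, 64.4, 261 and 88.4 in WT libraries (1.71 ± 0.32, adjusted p = 0.00346), and Pde4b, which degrades cAMP, differed by 0.96 ± 0.19, adjusted p = 0.00692. Of 16 growth factor ligands and feedback genes 8 were higher and 1 lower. The EGF-family ligand Hbegf differed by 1.24 ± 0.25, adjusted p = 0.00756, the ERK phosphatase Dusp4 by 1.10 ± 0.18, adjusted p = 0.000852, the Ras-ERK inhibitor Spry2 by 0.91 ± 0.22, adjusted p = 0.0316 and the urokinase receptor Plaur by 1.95 ± 0.43, adjusted p = 0.0164, whereas Spred3, another Ras-ERK inhibitor, was lower (-1.24 ± 0.29, adjusted p = 0.0237). Of 18 genes of the aryl hydrocarbon receptor and NRF2 pathways 5 were higher, including the sensors Ahr (1.41 ± 0.34, adjusted p = 0.0289) and Nfe2l2 (0.43 ± 0.10, adjusted p = 0.0203). Of 22 survival and apoptosis genes 4 were higher, including Mcl1, an anti-apoptotic protein that HSCs need (1.32 ± 0.28, adjusted p = 0.0147), and the kinase Pim3 (0.87 ± 0.19, adjusted p = 0.0137). Without WT replicate 2 the called counts of these 4 groups were 2, 2, 1 and 0.

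Glucocorticoid-induced genes had 3 higher and 1 lower of 17, with a median of 0.58. The shares called over all genes tested, for this and the next lists, were 0.997% higher and 0.425% lower. Klf9 had 3863, 3241, 4086, 3519 and 4510.1 in the libraries labelled KO, against 1940.4, 707, 1679.6 and 1376 in WT libraries, and every KO library lay above every WT library (1.52 ± 0.27, adjusted p = 0.00194). The clock repressor Per1 (1.74 ± 0.38, adjusted p = 0.0166) and the kinase Sgk1 (1.71 ± 0.37, adjusted p = 0.015) were also higher, but both lost their calls without WT replicate 2 (adjusted p = 0.088 and 0.0919). Pik3ip1, an inhibitor of PI3 kinase, was lower, with 8624, 7483, 8414, 7818 and 8249.8 in the libraries labelled KO, against 15154, 9607, 10255 and 11368 in WT libraries (-0.49 ± 0.09, adjusted p = 0.00243). Other members such as Fkbp5 (-0.34 ± 0.19, adjusted p = 0.505) and Tsc22d3 (0.58 ± 0.19, adjusted p = 0.154) were not called. Of 24 p53 targets 1 was higher, the kinase Plk2, with 10310.5, 11224, 12439, 10338 and 11455 in the libraries labelled KO, against 5158, 3807, 4787 and 4709 in WT libraries (1.28 ± 0.20, adjusted p = 0.000604), and 1 lower, the stress sensor Sesn1 (-0.43 ± 0.10, adjusted p = 0.0174). Of 29 FoxO and autophagy genes 1 was called, Map1lc3a, a coat protein of autophagosomes, with 1069.6, 1025, 1124, 954 and 1307 in the libraries labelled KO, against 682, 572, 423 and 598 in WT libraries (0.96 ± 0.19, adjusted p = 0.00593). Klf9, Pik3ip1, Plk2 and Map1lc3a were called whichever library was left out.

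The cAMP response element is the palindrome TGACGTCA, bound by CREB and ATF factors. Of 32851 windows in the RefSeq table (GRCm38.p6), which reach from 250 bases before a gene's start to 50 after it, 508 hold it (1.55%). Windows existed for 121 of the 169 higher genes (71.6%), fewer than the 80% that a comparison of shares needs, so that comparison is void. Among the 11 higher genes with a match, parts of 4 windows are shown with the element in capitals because these genes are described here, and a match says only that the letters are present. They run 5′ to 3′ on the gene's own strand.
Creb5, chr6:53287218-53287302, plus strand: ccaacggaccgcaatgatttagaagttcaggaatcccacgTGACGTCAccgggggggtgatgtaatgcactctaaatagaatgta
Ppp1r15a, chr7:45526269-45526320, minus strand: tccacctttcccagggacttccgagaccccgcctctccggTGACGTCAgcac
Plk2, chr13:110394942-110395029, plus strand: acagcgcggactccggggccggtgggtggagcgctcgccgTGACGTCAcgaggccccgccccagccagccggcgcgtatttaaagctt
Trp53inp2, chr2:155381775-155381855, plus strand: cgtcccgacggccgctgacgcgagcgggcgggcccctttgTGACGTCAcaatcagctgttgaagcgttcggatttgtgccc
Creb5, Ppp1r15a and Plk2 are described above, and Trp53inp2, a nuclear protein that takes part in autophagy, had 658, 592, 599, 649 and 604 in the libraries labelled KO, against 364, 112, 252 and 197 in WT libraries (1.54 ± 0.40, adjusted p = 0.0444). All 4 genes were called higher, and Creb5 alone overlapped, with WT replicate 3 above 1 library labelled KO. The call of Trp53inp2 ended without WT replicate 2 (adjusted p = 0.19), as did that of Ppp1r15a, whereas Creb5 and Plk2 were called whichever library was left out.

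HSC identity and quiescence genes were mostly level: of 29 tested, 2 were lower and none higher, against 0.425% and 0.997% of all genes tested. Their median was -0.03, and the mean log2 levels were 12.12 to 12.16 in the libraries labelled KO and 12.13 to 12.27 in WT libraries. Hlf, a transcription factor that guards HSC quiescence, had 6527, 5318, 5748, 6154 and 5758 in the libraries labelled KO, against 7508, 6548, 9296 and 9309 in WT libraries. Ly6a, the surface antigen Sca-1, had 4449.7, 5072, 4055, 4727 and 4497 in the libraries labelled KO, against 6588, 5556, 6127 and 7207 in WT libraries. The KO values of both genes lay below all WT values, with differences of -0.46 ± 0.10, adjusted p = 0.0199 for Hlf and -0.48 ± 0.11, adjusted p = 0.0199 for Ly6a. The HSC surface receptor Procr was not called (-0.01 ± 0.10, adjusted p = 0.995). Of 26 adhesion and migration genes, a list chosen after values were seen, Itga4, the alpha chain of the VLA-4 integrin, was lower (1794, 2187, 1883, 1934 and 1875 in the libraries labelled KO, against 2835, 2487, 3908 and 2999.6 in WT libraries). Its difference was -0.64 ± 0.12, adjusted p = 0.00466 and its call held whichever library was left out. The integrin activator Tln1 was also lower (-0.35 ± 0.09, adjusted p = 0.0338), while the sphingosine phosphate receptor S1pr1 (0.75 ± 0.18, adjusted p = 0.0334) and the small GTPase Rap1b (0.56 ± 0.13, adjusted p = 0.0206) were higher, calls that ended in 6, 8 and 5 of the 9 fits without a library. The call of Hlf ended in 5 and that of Ly6a in 3 of the 9 fits without a library, with adjusted p up to 0.103 and 0.0963, both without WT replicate 4.

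None of the 31 genes of the HSC ageing signature was called at 2 years by limma. Their median difference was 0.05. At an unadjusted p under 0.05, 1 was higher and 1 lower, against 6.53% and 5.01% of all genes tested. The mean log2 level was 11.91 ± 0.11 in the libraries labelled KO and 11.88 ± 0.16 in WT libraries (SD, n = 5 and 4). Among them, Selp, a platelet adhesion receptor that rises in old HSCs, had 16286, 18061, 19424, 13963 and 17789.7 in the libraries labelled KO, against 13203, 14874, 15263 and 18732 in WT libraries (0.14 ± 0.16, adjusted p = 0.818). Nupr1 (-0.11 ± 0.17, adjusted p = 0.883), Clu (0.26 ± 0.21, adjusted p = 0.715), Aldh1a1 (0.15 ± 0.15, adjusted p = 0.794) and Vwf (-0.22 ± 0.15, adjusted p = 0.651) overlapped between groups. At 1 year 12 of the 31 were called lower and 0 higher, with a median of -0.53, where 0.637% of all genes tested were called lower. That count was 7 without IL1R1 KO 1-year replicate 2, 6 with the mean level of the immediate early genes as a covariate and 3 with IL1R1 KO 1-year replicate 1 placed at 2 months, the age that another of its labels gives. The genotype difference itself differed between 2 years and 1 year for 1 of the 31, Trim47, which was at 0.16 at 2 years and -0.68 at 1 year (limma, adjusted p = 0.0143). Trim47 was not called without IL1R1 KO 1-year replicate 2 or 4, with the replicate number as a block, or with replicate 1 placed at 2 months.

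Inflammatory signalling genes other than the IL-18 receptor chains were not called. Of 30 genes of IL-1 family receptors and signalling, Il18r1 and Il18rap were lower, where 0.425% of all genes tested were called lower. Il18r1, the ligand-binding chain, had 3.5, 20.7, 20.7, 44.0 and 0.616 in the libraries labelled KO, against 81.1, 158, 113 and 68.5 in WT libraries, low values that were below every WT value in the libraries labelled KO (-3.21 ± 0.84, adjusted p = 0.0488). Il18rap, the signalling chain, had 566, 639, 541, 507 and 500.3 in the libraries labelled KO, against 1174, 813, 1478 and 726 in WT libraries (-0.87 ± 0.22, adjusted p = 0.0427). Each lost its call in 8 of the 9 fits without a library. Both genes lie beside Il1r1 on chromosome 1. Within 5 Mb on either side 72 genes were tested and 3 were called, against 1.42% of all genes tested, with Neurl3 as the third (0.68 ± 0.11, adjusted p = 0.000581, higher). Of 34 NF-kB targets none was called, and the median was 0.11. At an unadjusted p under 0.05, 6 of them were higher and 2 lower, against 6.53% and 5.01% of all genes tested. The inhibitor Nfkbia (-0.60 ± 0.17, adjusted p = 0.0831), whose groups overlapped, and the deubiquitinase Tnfaip3 (1.01 ± 0.38, adjusted p = 0.239), whose groups did not, were not called. Likewise no gene was called of 34 in the type I interferon response (median -0.05), 26 in the interferon gamma response (-0.05), 25 inflammatory cytokine receptors (-0.07) and 27 Toll-like and NOD receptors (-0.11), with 0 to 2 higher and 1 to 4 lower at an unadjusted p under 0.05.

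Cell cycle and metabolic lists were also without calls. Over all genes tested, 6.53% were higher and 5.01% lower at an unadjusted p under 0.05. Of 40 cell cycle genes 32 had a positive difference, with a median of 0.09 and 1 gene higher at an unadjusted p under 0.05, and the proliferation marker Mki67 had 2216, 2469, 2196, 1672 and 2346 in the libraries labelled KO, against 2448, 1337, 2312 and 2036 in WT libraries (0.13 ± 0.15, adjusted p = 0.843). The 63 oxidative phosphorylation genes had a median of 0.01 with 2 higher and 1 lower at an unadjusted p under 0.05, and all 13 transcripts of the mitochondrial genome had a negative difference with a median of -0.19 and an unadjusted p of 0.05 or more. The megakaryocyte (median 0.08), lymphoid priming (-0.01) and sterol synthesis (-0.02) lists had no call, with 1 higher in each and 0, 3 and 6 lower at an unadjusted p under 0.05. Of 15 MHC class II genes, 14 CDK inhibitors and G1 cyclins, 20 aldehyde dehydrogenases and 24 regulators of DNA methylation and clonal haematopoiesis none was called, with 0 to 3 higher and 0 to 2 lower at an unadjusted p under 0.05, and of 23 MHC class I genes only Calr was. Myeloid priming genes had a median of -0.60 with only Calr called, and the myeloid enzyme Mpo had 145, 2899.7, 3281, 3640.2 and 408 in the libraries labelled KO, against 11719, 2630.4, 3529 and 16541 in WT libraries, a wide spread within both groups (-2.49 ± 2.20, adjusted p = 0.754).

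Markers of other blood cells were read beside these results, and no marker was called by limma. The mean log2 level of 10 mast cell, basophil and eosinophil markers was 2.31 ± 0.68 in the libraries labelled KO and 5.47 ± 1.40 in WT libraries (SD, n = 5 and 4), without overlap. At an unadjusted p under 0.05, 5 of these markers were lower, against 5.01% of all genes tested. The basophil protease Mcpt8 had 13.1, 5.71, 7.69, 97.7 and 0 in the libraries labelled KO, against 609, 230.3, 146 and 472 in WT libraries, and the IgE receptor chain Ms4a2 was listed at 0 in all 5 libraries labelled KO and had 26.1, 4.99, 87.5 and 38.8 in WT libraries. Of the 14 erythroid markers 6 were higher at an unadjusted p under 0.05, against 6.53% of all genes tested. The mean log2 level of the 14 was 9.99 to 10.43 in the libraries labelled KO and 7.82 to 9.45 in WT libraries. Hba-a1, an alpha globin whose reads a second copy can share, had 4506, 2988, 3752, 5374 and 3472 in the libraries labelled KO, against 1255, 128, 2066 and 974 in WT libraries. Neutrophil markers spanned 7.02 to 8.68 in the libraries labelled KO and 4.07 to 10.70 in WT libraries, and monocyte and macrophage markers 4.12 to 5.22 in the libraries labelled KO and 4.12 to 6.68 in WT libraries. The B and plasma cell, T and NK cell, and endothelial and stromal markers overlapped between groups as well. Among immunoglobulin variable segments, named after their values were seen, Igkv4-55 was called lower, with 0, 0, 2.83, 6.62 and 0 in the libraries labelled KO, against 292, 4126, 5.97 and 2920.3 in WT libraries (-7.66 ± 1.22, adjusted p = 0.00058). Its groups overlapped, with 1 WT library (5.97) below 1 library labelled KO (6.62), and its WT values were widely spread. Other segments are not reported here. In bulk RNA, fewer cells of a type and less RNA per cell cannot be told apart. With the neutrophil level as a covariate 236 genes were called, and the part of the basophil and erythroid levels in the results was not tested.

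**Figure D4:**
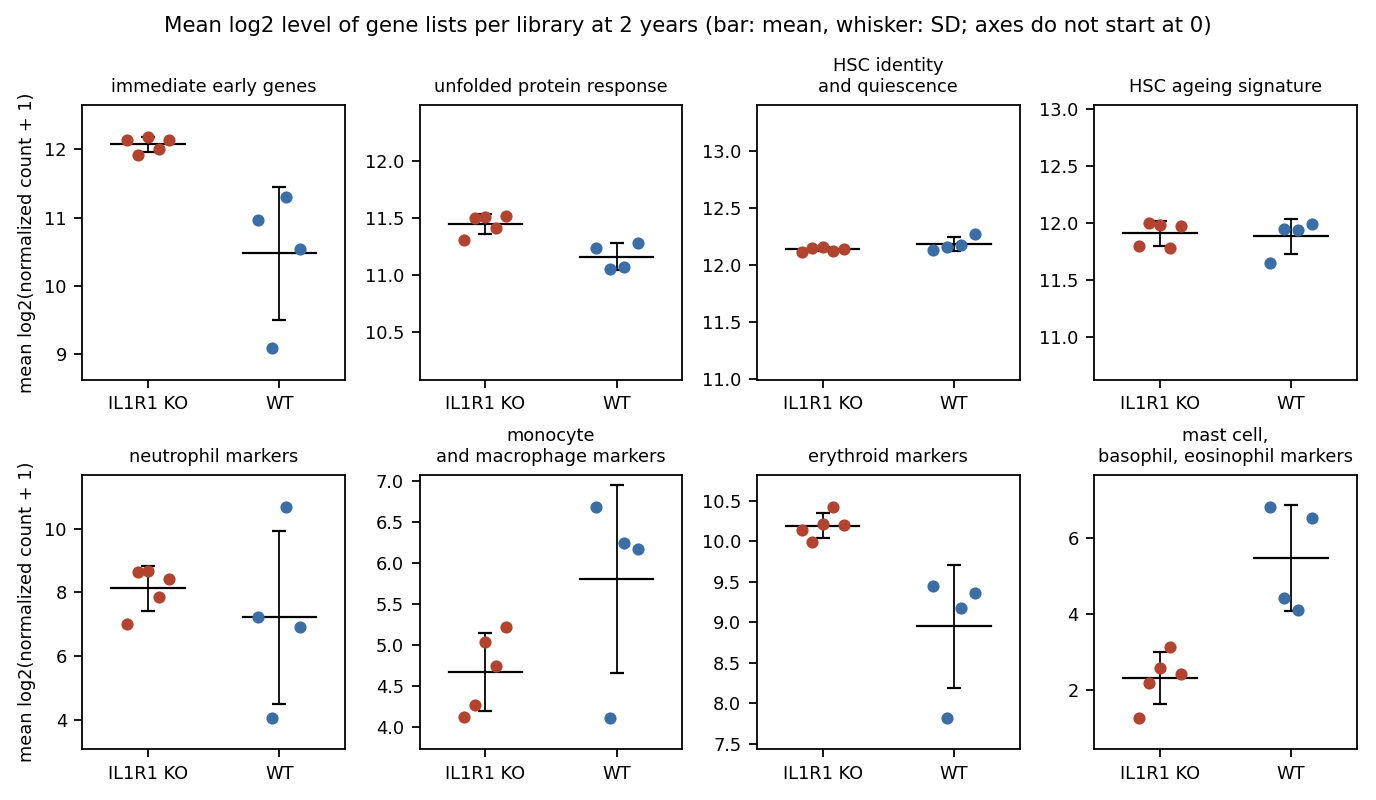
Each panel shows the mean log2(normalized count + 1) of 1 gene list, with the 5 libraries labelled IL1R1 KO in red on the left and the 4 WT libraries in blue on the right, bars at the mean and whiskers of 1 SD. Immediate early genes, the unfolded protein response, erythroid markers and mast cell, basophil and eosinophil markers separate the groups, while the HSC identity, HSC ageing, neutrophil and monocyte lists overlap.

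Among the largest falls without overlap, Skint3, a gene of the Skint family, was listed at 0 in all 5 libraries labelled KO and had 146, 39.5, 28.5 and 44.3 in WT libraries. The difference was -5.73 ± 0.56, adjusted p = 1.4e-07, and Skint3 was also called lower at 2 months (-7.58) and 1 year (-5.27). Mobp, known as a myelin protein, had 0.896, 0, 28.4, 0.555 and 3.35 in the libraries labelled KO, against 97.1, 50.8, 55.4 and 136 in WT libraries, with 1 library labelled KO well above the others (-4.60 ± 0.99, adjusted p = 0.0135). The imprinted ligand Dlk1 had 58.8, 26.3, 38.1, 37.5 and 29.0 in the libraries labelled KO, against 82.7, 89.0, 181 and 150.0 in WT libraries (-1.68 ± 0.43, adjusted p = 0.0439). Cdk5rap1, which modifies mitochondrial tRNAs, had 698, 422, 493, 687 and 379 in the libraries labelled KO, against 1678, 1849, 1639 and 1074 in WT libraries. Every KO value was below every WT value (-1.56 ± 0.26, adjusted p = 0.000852). Kif24, a kinesin of the centriole, had 353, 299.6, 386, 362 and 361 in the libraries labelled KO, against 812, 645, 1171 and 502 in WT libraries (-1.08 ± 0.20, adjusted p = 0.00335). The mitochondrial adenylate kinase Ak4 had 493, 332, 388, 291 and 393 in the libraries labelled KO, against 632, 792, 807 and 872 in WT libraries (-1.04 ± 0.18, adjusted p = 0.00166), and Pde2a, which degrades cyclic nucleotides, had 413, 641, 518, 1079.7 and 874 in the libraries labelled KO, against 1471, 1418, 2165 and 1871 in WT libraries (-1.36 ± 0.33, adjusted p = 0.0338). Skint3, Cdk5rap1, Kif24 and Ak4 were called whichever library was left out, while Mobp was lost without WT replicate 4 (adjusted p = 0.0556) and Dlk1 and Pde2a in 7 and 6 of the 9 fits.

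The comparisons at 2 months and 1 year use other libraries. At 1 year 221 genes were called (1.3%) and at 2 months 69 (0.407%). Of the 241 genes of 2 years, 61 were also called at 1 year (25.3% of the 2-year list, 27.6% of the 1-year list) and 27 at 2 months (11.2% and 39.1%), none with the opposite sign. The 169 higher genes had a median difference of 0.41 at 1 year, where 155 kept their sign, and of -0.05 at 2 months, where 74 did. The 72 lower genes had medians of -0.40 (68 with the same sign) and -0.13 (48). Immediate early genes had medians of -0.46 at 2 months and 1.21 at 1 year.

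The difference between the genotype differences was tested directly. Between 2 years and 2 months 67 genes passed (0.395%, with 0.313% upward and 0.0826% downward), 39 of them among the 241 (34 higher and 5 lower at 2 years). Sik1 differed by -1.82 between the genotypes at 2 months and by 3.19 at 2 years, a change of 5.01 ± 1.05, adjusted p = 0.0335. Klf9 changed by 2.50 ± 0.40, adjusted p = 0.00569, Dyrk3 by 3.00 ± 0.53, adjusted p = 0.0167 and Csrnp1 by 3.31 ± 0.62, adjusted p = 0.0221, while Cdk5rap1 changed by -1.99 ± 0.39, adjusted p = 0.0221. Between 2 years and 1 year 3 genes passed (0.0177%), none of them among the 241. These tests rest on few libraries: without WT 2-year replicate 2 the first count was 7, without IL1R1 KO 2-month replicate 1 it was also 7, and with the library labelled IL1R1 KO 1 year replicate 1 placed at 2 months, the age that another of its labels gives, it was 0 (1360 genes at an unadjusted p under 0.05).

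**Figure D5:**
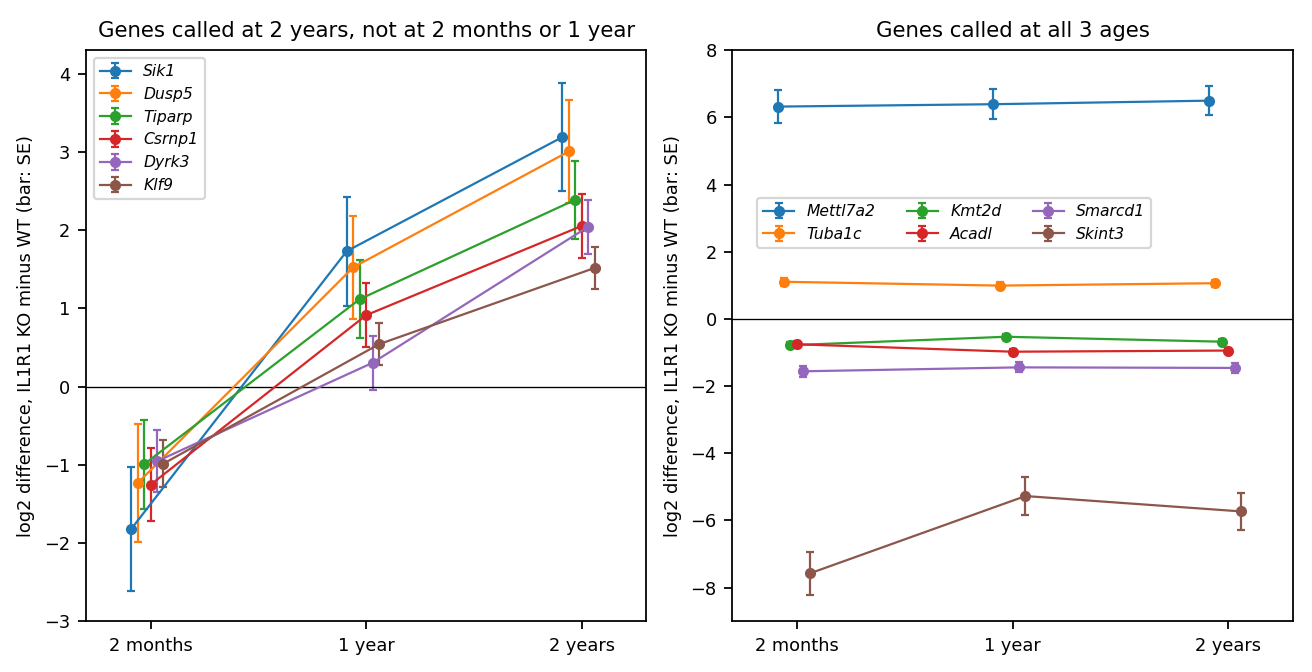
The vertical axis is the log2 difference, IL1R1 KO minus WT, with bars of 1 SE, at 2 months, 1 year and 2 years. On the left, 6 genes called at 2 years and at neither younger age have a negative difference at 2 months and a positive one at 2 years; on the right, 6 genes called at all 3 ages keep their sign.

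The 27 genes called at all 3 ages numbered 15 higher and 12 lower ones, and 23 of them were protein coding. Acadl, an enzyme of fatty acid oxidation, had 2745, 2893, 2740.4, 2974 and 2708 in the libraries labelled KO, against 4893, 5886, 5671 and 5217 in WT libraries, with a difference of -0.94 ± 0.08, adjusted p = 1.16e-08. Smarcd1, part of the SWI/SNF complex that moves nucleosomes, had 229.8, 218, 187, 272 and 263 in the libraries labelled KO, against 564, 583, 739.9 and 689 in WT libraries (-1.46 ± 0.15, adjusted p = 2.33e-07). In both genes all KO values lay well below all WT values. Galnt6, which starts mucin-type glycans, had 3838, 3832, 4080.3, 3605 and 3378 in the libraries labelled KO, against 7649, 10559.8, 6829 and 8132 in WT libraries (-1.13 ± 0.13, adjusted p = 5.01e-06), and Kmt2d, a histone methyltransferase, had 6678, 6336, 5849, 5419.6 and 5735 in the libraries labelled KO, against 9059, 9203, 10947 and 9231 in WT libraries (-0.68 ± 0.09, adjusted p = 1.7e-05). Tuba1c, an alpha tubulin with near-identical copies, was higher, with 13483, 14198, 13691, 12264 and 14114 in the libraries labelled KO, against 6296, 7652, 5011 and 7304 in WT libraries (1.06 ± 0.10, adjusted p = 7.11e-08). The unnamed genes Gm16867 (-4.23 ± 0.51, adjusted p = 9.89e-06) and Gm15446 (-3.70 ± 0.45, adjusted p = 1.46e-05) were lower. Low values of Gm16867 were not limited to the KO label. Its mean was 56.7 in germ-free libraries at 1 year and 32.6 at 2 months, against 32.8 in KO and 563 in WT libraries at 2 years. Gm15446 had germ-free means of 1946 and 1815, against 114 in KO and 1714 in WT libraries at 2 years. The germ-free values were not tested here. With the immediate early level as a covariate 21 of the 27 were still called, and all named here were called whichever library was left out.

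Some called genes lay close together in the genome (GRCm38). Of the 27 genes called at all 3 ages, 20 lay within 5 Mb of another. Acadl, Rpe and Lancl1, all lower, lay together on chromosome 1, and the higher Slc5a9 lay near the lower Skint3 on chromosome 4. Entpd4 and Gm16867, both lower, were neighbours on chromosome 14, and Tmem181b-ps and Dynlt1b, both higher, on chromosome 17. The stretches below were picked as chains of at least 4 called genes, with a distance setting of 2 Mb. High shares are therefore built in, and 1.42% of all genes tested were called. On chromosome 15, from 98831669 to 100729376, 9 of 43 tested genes were called (20.9%), 7 of them at all ages: the stretch holds Smarcd1, Galnt6, Tuba1c, Tuba1a, Kmt2d, Bin2 and the Mettl7a genes. On chromosome 8, from 82763607 to 85098282, 12 of 67 were called (17.9%), 4 of them at all ages, and this stretch holds Calr, Gcdh and Ier2. On chromosome 6, from 48684549 to 50263862, 4 of 17 were called higher (23.5%), none at all ages: Gsdme, which encodes a pore-forming protein, and 3 GTPases of the immunity-associated Gimap family, whose members can share reads. Gimap5, which T cells need for survival, had 7080.1, 7189, 7603, 8022 and 7853 in the libraries labelled KO, against 4998, 4632, 5758 and 3995 in WT libraries, with a difference of 0.65 ± 0.10, adjusted p = 0.000188 at 2 years and of 0.35 at 1 year and -0.16 at 2 months. Gimap6 (0.48 ± 0.08, adjusted p = 0.00133) and Gimap4 (1.04 ± 0.22, adjusted p = 0.0111) moved the same way, and the other 5 Gimap genes tested were not called. The 4 called genes on chromosome 11 from 68691559 to 70229798, Per1 among them, were 5.41% of the 74 tested there.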

How the data were processed

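RNA of sorted bone marrow HSCs was copied by Smart-seq2 and sequenced from 1 end, per the labels' protocols; Smart-seq2 does not mark strand, so overlapping antisense genes cannot be told apart. The deposited values are normalized counts, a signal scale made by the authors. Per the submitters' processing notes, the build was GRCm38 (mm10) and the tools included Salmon 1.2.0.0, DESeq2 1.26.0, cutadapt 2.10 and FastQC 0.11.9. How transcripts were summed is not given in those notes. Values were not whole reads (9.64% to 18.5% of values below 20 reads were whole within 0.001), so no count model was run and depth was estimated from the step of 1 read.

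Groups followed the title label. Values entered limma 3.58.1 (R 4.3.3) as log2(value + 1), which understates changes of low genes, with 1 mean per group over all 30 libraries, moderated with a trend and robustly, and Benjamini-Hochberg adjustment over 16958 genes at 0.05. The script was tested on simulated data. Figures and tables used Python 3.11.15. The genes named were Il1r1, the 12 largest rises and the 12 largest falls without overlap and with a mean of at least 50 (unnamed genes, pseudogenes and receptor segments left out), up to 3 called members of each list, genes called at all 3 ages and a panel of 18 genes; others were named after their values were seen, and a few genes under these rules are not reported here. Members and lists were chosen with earlier results of these data known. Alternatives covered the pseudocount, filters, scaling, weights, covariates, a replicate block, 1 ambiguous age label and leaving out each library. Positions come from GENCODE M21, promoters from RefSeq.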

Additional observations from a re-analysis of the deposited data

Results flagged for a closer look

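In 120 groups of 4 or 5 libraries examined, 2 had a library far from the others, and chance alone gives about 1 in 20. Dusp5 was 82.9 in WT 2-year replicate 2, against 338 to 435 in the other WT libraries of that age. Kmt2d was 10947 in WT 2-year replicate 3, against 9059 to 9231 in the others.

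For 7 named genes the difference between IL1R1 KO and WT at 2 years departed from that at 2 months by limma's test of the change itself (log2 scale). The change was 5.01 for Sik1 (adjusted p = 0.0335), 3.38 for Tiparp (0.0430), 3.31 for Csrnp1 (0.0221), 3.00 for Dyrk3 (0.0167), 2.50 for Klf9 (0.00569), 1.27 for Map1lc3a (0.0414) and -1.99 for Cdk5rap1 (0.0221). With the library labelled IL1R1 KO 1 year replicate 1 placed at 2 months no gene passed this test.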

How the results depend on the processing

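At 2 years (241 genes called) the count was 238 and 241 with pseudocounts of 0.5 and 5, 175 without a filter on low values, 253 with a filter within the 9 libraries, 241 after median-of-ratios rescaling, 219 after quantile normalization, 236 with the neutrophil covariate and 278 with only the 2 groups fitted. With array quality weights it was 535, against 40 at 2 months, 474 at 1 year, 106 for the change from 2 months and 19 for the change from 1 year. With the immediate early covariate, which itself separates the 2-year groups, it was 47, against 71 at 1 year and 3 for the change from 2 months. In that fit 26 of the 43 named called genes lost their call. With IL1R1 KO 1 year replicate 1 placed at 2 months it was 158, against 129 at 1 year and 0 for either change between ages. A pseudocount of 5 gave 6 genes for the change from 1 year. The causes of these shifts were not tested. Leaving out 1 library gave 123 to 256 genes at 2 years, 98 to 238 at 1 year, 38 to 68 at 2 months, 7 to 110 for the change from 2 months and 0 to 8 for that from 1 year. Same-numbered libraries did not deviate together (correlations of -0.044 to 0.018 at 2 years), and a replicate block gave 192 genes at 2 years, 141 at 1 year and 0 for the change from 1 year.

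Of the 241 called genes 80 stayed called whichever 2-year library was left out. Genes selected by their difference seldom turn, and none of the 241 changed sign in any of the 21 settings. Uncalled genes did: with the immediate early covariate, built from a list that holds both genes, Fos was -0.45, against 2.01 without it, and Egr1 -0.14, against 1.32. Smaller differences turned too: with that covariate Il1r1 was -0.036, Il1rap 0.066 and Mki67 -0.019, with the neutrophil covariate Myd88 was 0.0019 and Procr 0.045, and with the replicate block Procr was 0.0055. When 1 library was left out, Il1rap ran from -0.16 to 0.060, Myd88 from -0.11 to 0.052, Procr from -0.057 to 0.082, Mki67 from -0.064 to 0.23 and Flt3 from -0.56 to 0.17. With 5 and 4 libraries and 19.3 to 35.3 M reads each behind the 2-year comparison, Fos and Nr4a1 were not called at fitted differences of 2.01 and 3.42.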
